A study of Mus musculus with 60 samples.

Results

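H3K27me3 regions away from promoters were taken from the peaks of 30 CUT&RUN libraries of differentiating mouse embryonic stem cells (ESCs). CUT&RUN cuts the DNA around an antibody-bound protein in permeabilised cells, and a peak is a stretch where the released fragments exceed an IgG control. Joining every overlapping peak across the 30 libraries gave 4512 regions. A region was kept when it held a peak in 2 to 29 libraries and touched no window of 1.5 kb on either side of the start of a protein-coding transcript (GENCODE M21, mm10), which left 800 of 3388 regions. The peak calls therefore chose the regions, and the number of libraries, the distance from promoters and the content of the regions are given as descriptions with no test. The 2588 regions with a peak in 2 to 29 libraries that did touch such a window are called promoter regions.

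The study followed ESCs that lost the DNA dioxygenase TET1 through a protocol that converts WT ESCs into anterior neural progenitor cells (antNPCs). All lines were male ESCs of the B6129S6F1 background from blastocysts of a Tet1<tm1Koh> cross, and were grown in serum with LIF on feeder fibroblasts that were depleted before plating. WT lines carried intact Tet1, KO lines were homozygous for the disrupted allele, and MUT lines were clones of a single WT parent in which CRISPR editing had made the catalytic domain inactive. Cells were collected at day 0, at days 2, 3 and 5 of culture in N2B27 medium with bFGF until day 3, and at day 5 after 5 µM XAV939, a Wnt inhibitor, had been added from day 2 (day 5 XAV). Each of the 15 combinations of genotype and time point held 2 cell lines as replicates, with WT70 and WT72 throughout. KO15 was paired with KO25 at days 0 and 2 and with KO1 from day 3 on. CM59 of the MUT lines was likewise paired with CM40 and then CM69, so in KO and MUT a change of line and the step from day 2 to day 3 cannot be told apart. Peaks were called against IgG samples, whose own signal was not analysed here.

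H3K27me3 is written by Polycomb repressive complex 2 (PRC2) and marks genes that are held silent. In ESCs it lies mainly over CpG islands, short stretches rich in CpG dinucleotides and poor in DNA methylation, most of which are promoters of developmental genes. Some CpG islands lie inside genes or between them, at starts of noncoding RNAs or at enhancers. TET1 also binds CpG-rich DNA and oxidises methylated cytosine, which makes regions away from coding starts a second place where both could meet.

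The CpG content that separates these regions can be read from the sequence itself. The 300 bp window with the most CpG is shown for 7 regions on which the results below turn, from GRCm38.p6 (mm10), plus strand, in lower case with every CG in capitals. The first pair were called in nearly all libraries, the next pair are described in the comparisons of genotypes, and the last 3 had the lowest or among the lowest p between early and late time points.
Mef2c/Mir9-2 region, chr13:83730995-83731294: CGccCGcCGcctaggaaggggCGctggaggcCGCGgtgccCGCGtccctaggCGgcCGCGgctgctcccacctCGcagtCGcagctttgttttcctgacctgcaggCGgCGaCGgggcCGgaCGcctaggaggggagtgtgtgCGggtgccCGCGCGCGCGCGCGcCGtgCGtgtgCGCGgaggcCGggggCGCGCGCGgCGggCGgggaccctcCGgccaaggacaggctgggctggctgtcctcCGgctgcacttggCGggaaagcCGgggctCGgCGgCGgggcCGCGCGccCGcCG
Wnt7b region, chr15:85625850-85626149: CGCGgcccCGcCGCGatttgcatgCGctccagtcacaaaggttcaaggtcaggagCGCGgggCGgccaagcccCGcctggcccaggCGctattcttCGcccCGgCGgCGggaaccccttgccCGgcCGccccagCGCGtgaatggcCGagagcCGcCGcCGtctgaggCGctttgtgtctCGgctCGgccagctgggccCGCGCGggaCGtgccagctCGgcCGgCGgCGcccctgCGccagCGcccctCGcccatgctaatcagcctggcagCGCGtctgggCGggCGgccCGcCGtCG
Gm4881 region, chr7:24933611-24933910: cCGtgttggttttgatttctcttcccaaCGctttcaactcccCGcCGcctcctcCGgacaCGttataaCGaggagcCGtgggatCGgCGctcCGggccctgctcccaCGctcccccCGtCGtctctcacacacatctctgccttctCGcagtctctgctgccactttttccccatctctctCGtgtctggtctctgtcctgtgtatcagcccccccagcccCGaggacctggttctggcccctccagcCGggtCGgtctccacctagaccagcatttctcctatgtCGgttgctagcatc
Josd2 region, chr7:44474874-44475173: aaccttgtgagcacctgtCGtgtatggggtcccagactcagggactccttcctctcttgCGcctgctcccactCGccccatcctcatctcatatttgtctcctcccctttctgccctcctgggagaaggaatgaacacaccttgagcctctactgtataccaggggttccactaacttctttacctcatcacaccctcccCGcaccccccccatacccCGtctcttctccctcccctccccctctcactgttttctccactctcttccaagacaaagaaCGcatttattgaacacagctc
Gpm6a region, chr8:55366557-55366856: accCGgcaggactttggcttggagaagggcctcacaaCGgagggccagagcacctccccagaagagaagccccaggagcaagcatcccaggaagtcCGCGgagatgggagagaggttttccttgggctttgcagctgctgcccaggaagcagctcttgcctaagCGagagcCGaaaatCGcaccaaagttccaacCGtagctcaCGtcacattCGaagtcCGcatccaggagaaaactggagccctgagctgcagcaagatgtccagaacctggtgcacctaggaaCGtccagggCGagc
Tmco5 region, chr2:116553066-116553365: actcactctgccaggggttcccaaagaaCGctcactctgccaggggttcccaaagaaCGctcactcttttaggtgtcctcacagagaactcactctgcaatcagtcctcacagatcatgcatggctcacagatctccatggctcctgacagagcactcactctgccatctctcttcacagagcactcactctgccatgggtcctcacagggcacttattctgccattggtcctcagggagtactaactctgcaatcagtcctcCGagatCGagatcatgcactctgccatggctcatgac
Samd9l region, chr6:3201148-3201447: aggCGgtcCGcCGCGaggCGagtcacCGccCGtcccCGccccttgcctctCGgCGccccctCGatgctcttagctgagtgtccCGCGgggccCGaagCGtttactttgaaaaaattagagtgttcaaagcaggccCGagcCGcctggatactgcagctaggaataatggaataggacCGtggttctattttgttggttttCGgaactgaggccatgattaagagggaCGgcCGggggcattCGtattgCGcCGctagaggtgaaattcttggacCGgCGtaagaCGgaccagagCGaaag
These windows hold 49, 44, 20, 6, 13, 4 and 28 CpG in that order. The Mef2c window is in an intron of the lncRNA gene C130071C03Rik, the Josd2 window in an intron of the lncRNA gene 5430431A17Rik and the Gm4881 window in an intron of that coding gene, while the other 4 touch no annotated gene.

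Most regions away from promoters were called in few libraries. Of the 800, 212 (26.5%) held a peak in 2 libraries, 236 in 3 to 5, 156 in 6 to 10, 110 in 11 to 20, 67 in 21 to 28 and 19 (2.38%) in 29. The median was 5 libraries, against 9 for promoter regions, of which 13.1% were called in 2 libraries and 5.64% in 29. Just outside the rule were 324 regions away from promoters with a peak in 1 library and 31 with a peak in all 30. A peak in each of the 3 genotypes was found at 498 of the 800, and 41 had peaks in 1 genotype only.

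**Figure D1:**
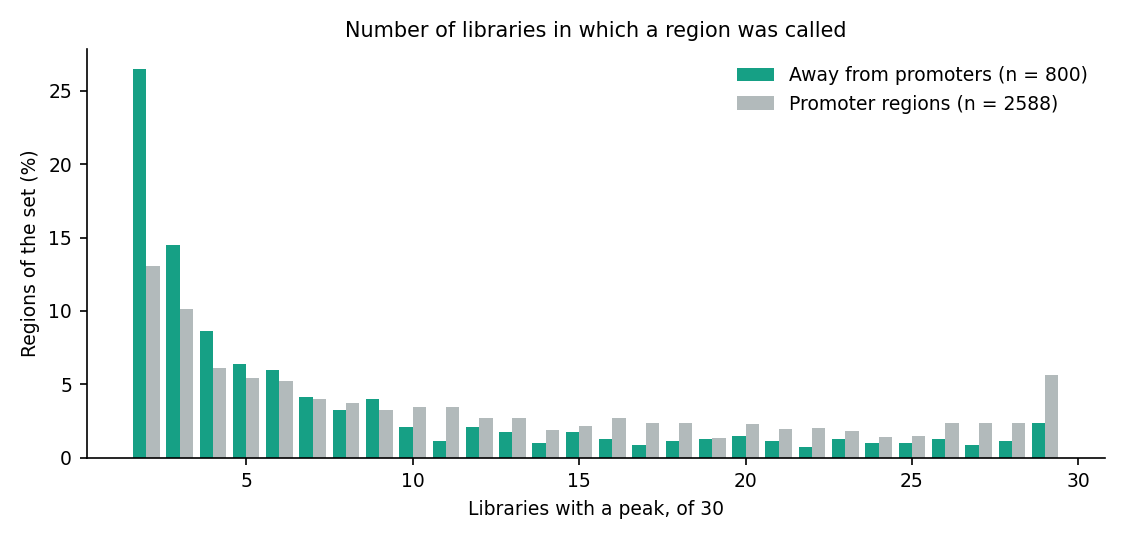
Share of regions (y axis, percent of the set) by the number of libraries with a peak (x axis, 2 to 29), for the 800 regions away from promoters (green) and the 2588 promoter regions (grey). The green bars are highest at 2 libraries and fall below the grey ones from the middle of the axis on.

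The libraries differed widely in how many of these regions they held. The number of peaks per library ran from 704 to 3466 with a median of 1789, and the share of the 800 regions with a peak from 3.63% to 66.1% with a median of 21.9%. The share was lower than that of promoter regions in 30 of 30 libraries, at 0.435 to 0.831 of it. WT72 at day 0 (3450 peaks) and CM40 at day 0 (3466 peaks) stood apart: 573 of the 800 regions held a peak in at least 1 of them, 74 in no other library, and 608 still had peaks in 2 or more libraries without them. Of the 212 regions in 2 libraries, 24 were shared by KO1 and KO15 at day 5 and 22 by KO15 and CM69 at day 5 XAV. Sequencing depth is unknown, since the files hold peaks and not reads, and the deposited signal was not scaled to depth. Within a library, peaks at these regions ranked lower in total signal than those at promoter regions in 28 of 30 libraries, with a median of the library medians of 33.8 against 37.8 on a percentile scale. In maximum signal they ranked lower in 17 of 30.

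As a check of the labelled cell types, promoters of marker genes were examined, since the mark lies on silent genes. Of 8 ESC genes, 1 held a promoter peak in any library at day 0 and 5 at day 5. Of 8 antNPC genes, 7 held one at day 0 and 7 at day 5, and of 6 mesoderm genes, 6 and 4. Of 4 fibroblast genes, which mark feeders, 3 held one at day 0 and 1 at day 5. A peak in any library says nothing of how many cells carry it, so these counts do not measure a mixture of cell types. They also pool the genotypes: at day 5 the ESC gene Sox2 and the fibroblast gene Thy1 held a peak in KO lines only. Of the antNPC genes, Sox1, Pax6, Lhx5, Six3, Rax and Lhx2 held one in both WT lines at day 5, and Otx2 and Hesx1 in neither. The check therefore does not establish antNPC identity.

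Regions away from promoters were of ordinary width but poorer in CpG than promoter regions. Their median width was 6357 bp, against 6932 bp. They held a median of 1.77 CpG per 100 bp (n = 791 on assembled chromosomes), against 2.46 in promoter regions and 1.07 in their own flanks, and 76.2% exceeded their flanks, against 97.1%. In the richest 300 bp window they held a median of 23 CpG, with quartiles of 11 and 35, against 38 in promoter regions, with quartiles of 30 and 45. A window like a CpG island, with at least 50% GC and an observed to expected CpG ratio of at least 0.6, was present in 521 regions (65.9%) and in 97.3% of promoter regions. The remaining 270 held a median of 9 CpG in the window and 0.887 per 100 bp, which is below the 0.982 per 100 bp of their flanks.

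**Figure D2:**
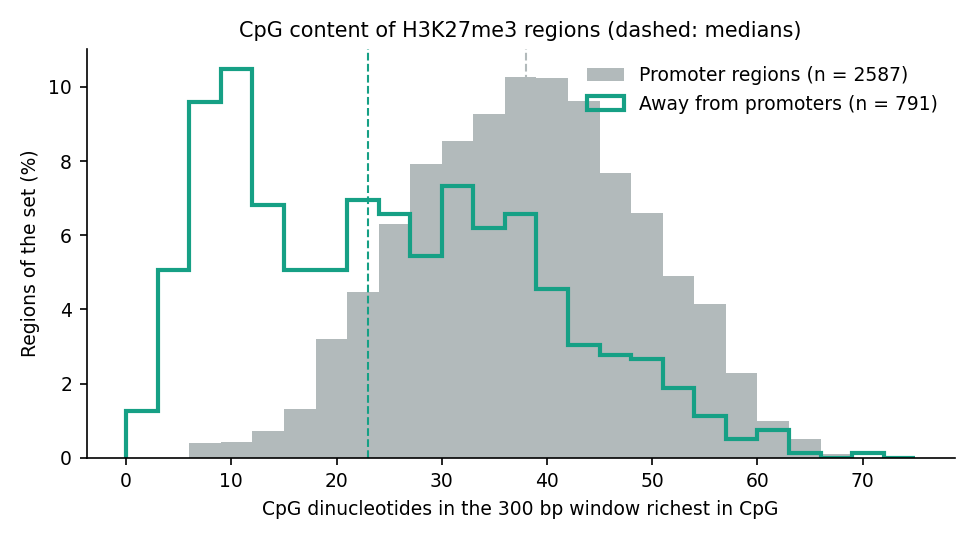
CpG dinucleotides in the richest 300 bp window (x axis) against the share of regions (y axis, percent of the set) for 791 regions away from promoters (green outline) and 2587 promoter regions (grey), with dashed lines at the medians of 23 and 38. The green outline has a peak near 10 CpG where promoter regions are scarce, and a second broad rise that overlaps them.

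Regions with an island-like window were called more widely and had their highest signal nearer that window. Their median was 6 libraries, against 3 for the regions without one. On average 40.6% ± 18.9 (SD, n = 12 libraries) of the 521 island-like regions held a peak at days 0 and 2, and 25.5% ± 13.4 (n = 18) after day 2. For the 270 others the shares were 24.0% ± 13.5 and 12.2% ± 7.51. The point of highest signal lay a median of 460 bp from the window's centre in island-like regions, and within 1 kb of it in 76% of them. In the others it lay 1446 bp away, and within 1 kb in 36.3%. The middle of the region lay 824 bp from the window's centre in island-like regions, and within 1 kb in 55.7%, against 1396 bp and 37.0% in the others. Promoter regions lay between these, at 632 bp and 70.8%.

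Sequence present in several copies made up a small part of most regions and nearly all of some. Of the 30-base words of a region, a median of 3.79% occurred more than once in the assembled chromosomes, on either strand, and 80 of 791 regions had over 50% such words. At the Gm4881 and Mef2c regions shown above the share was 1.53% and 1.96%, and at Josd2 and Wnt7b 9.42% and 4.71%. A region of 4778 bp at chr1:24611512-24616289 near Col19a1, called in 2 libraries, held 4649 bases in runs of 30 or more identical to the mitochondrial genome. Reads from such sequence can be placed at more than 1 copy, and the placement was not tested.

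By position, 112 of the 800 regions held the start of a long noncoding RNA (lncRNA) gene, 73 that of another noncoding gene or pseudogene, 283 lay in or touched the body of a protein-coding gene without such a start, and 332 lay outside protein-coding genes. Regions with an lncRNA start were called in a median of 8.5 libraries and 79.5% were island-like, while those outside genes were called in 4 and 54.5% were island-like. The nearest coding start was a median of 27720 bp away (n = 793), within 10 kb for 189 regions and over 100 kb for 129. The farthest, at chr8:50914443-50918771 over the start of the lncRNA gene C130073E24Rik, lay 2070492 bp from Tenm3, which codes for a teneurin that guides neuronal wiring, and was called in 6 of 6 libraries at day 0 and in 3 of 24 others.

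Some regions lay close to a promoter that carried the mark. The nearest promoter region, here counting also those called in all 30 libraries, was a median of 104059 bp away, against 184573 bp between promoter regions, and lay within 10 kb for 103 regions (13.0%), against 6.38% of promoter regions. Of 777 calls at those 103 regions, 74.9% fell in libraries where the neighbouring promoter region was called too. The neighbour was called in more libraries for 81 of them.

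Of the 19 regions with a peak in 29 libraries, 18 were island-like, and their median width was 13243 bp. For 4 of the 19, the nearest coding start was that of a developmental transcription factor gene, En2, Gbx2, Ptf1a or Foxd1, all but En2 chosen after their values were seen. A region of 15582 bp at chr5:28115980-28131561, 34133 bp upstream of the midbrain and hindbrain regulator En2, was missed only in KO15 at day 0. A region at chr1:89967004-89972966 inside Asb18, 35825 bp upstream of Gbx2, which sets the midbrain and hindbrain border, was missed only in CM59 at day 5 XAV, the library with the fewest peaks. The same library alone missed chr2:19423020-19438326, upstream of Ptf1a, a regulator of cerebellar and pancreatic fate, and chr13:98387924-98395899, 33682 bp downstream of the forebrain and kidney stroma regulator Foxd1. The widest of the 19, at chr6:47737040-47778618, lay outside genes 34812 bp from Pdia4 and was missed only in WT70 at day 5, and 94.7% of its words were repeated. Of the 31 regions called in all 30 libraries, the widest 4 spanned 94378 bp of a 5S rRNA gene array beside Gas8, 66210 bp over Mir9-3, 36551 bp at a distance of 55147 bp upstream of Ezh2 and 31528 bp over Mir9-1. Repeated words made up 91.5% of the Gas8 region and 96.9% of the Ezh2 region, against 3.4% and 2.75% of the Mir9-3 and Mir9-1 regions.

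MicroRNA genes were chosen for a closer description after their values had been seen. Of the 800 regions, 21 held the start of a miRNA gene. All 3 genes for miR-9, a miRNA that promotes neural differentiation, lay in regions of this kind: Mir9-2 was missed only in WT70 at day 0, and Mir9-1 and Mir9-3 lay in the regions called in all 30 libraries. Mir129-2 was called in 29 libraries, Mir203 in 26, Mir137, a miRNA of maturing neurons, in 24, and Mir183 and Mir96, a cluster of sensory cells, in 20. Of the genes for miR-124, the most abundant brain miRNA, Mir124a-1 was called in 30 libraries, Mir124a-2 in 25 and Mir124a-3 in 19. Not every neural miRNA gene was called widely, since Mir219a-2, of myelinating cells, held a peak in 6 libraries. The Mir290 cluster, which ESCs express strongly, held a peak in 2 libraries, both after day 2. Mature sequences from RefSeq (GRCm38.p6) are shown for 5 of these genes to show some of the most widely called ones beside one of the least, with the seed, bases 2 to 8, in capitals.
miR-9-5p: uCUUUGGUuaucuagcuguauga
miR-129-5p: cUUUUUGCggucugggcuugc
miR-137-3p: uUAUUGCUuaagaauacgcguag
miR-96-5p: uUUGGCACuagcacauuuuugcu
miR-291a-3p: aAAGUGCUuccacuuugugugc
None of these 5 shares a seed with another.

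Gene lists for the tissue gave the neighbours of the other regions, by the nearest coding start or the host gene. Of the 800, 24 belonged to neuroectoderm and forebrain regulators (median 8.5 libraries), 11 to neuronal transcription factors (6), 7 to primitive streak and mesoderm regulators (8), 2 to endoderm regulators (2.5) and 0 to the Hox clusters. The promoter regions had 0 for the Hox clusters as well. The rule leaves out regions called in all 30 libraries, and such a region of 21320 bp had Hoxc4 as its nearest coding start. Signalling genes of the Wnt, Nodal, BMP, FGF and Hedgehog pathways had 14 (5), genes of neuronal function 25 (3), pluripotency factors 6 (5.5), neural crest and glial regulators 6 (4) and imprinted domains 6 (8.5). The median of all 800 was 5. Meis2, a homeobox gene of the forebrain, had a region 1678 bp upstream that was called in 28 libraries. It lay only 40 bp from a called promoter region. Wnt7b, a Wnt ligand of the developing brain, had one in 28, Wnt8b, a forebrain Wnt ligand, one in 26 inside the gene, and Axin2, a negative regulator and target of Wnt signalling, one in 26. Among pluripotency factors, a region 114340 bp upstream of Klf4 was called in 17 libraries, 5 WT, 7 KO and 5 MUT. Regions of the 2 endoderm genes, Gata6 and Foxa2, were called in 3 and 2 libraries, none of them WT.

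The first comparison was over time: the 12 libraries of days 0 and 2 (early) against the 18 of days 3, 5 and 5 XAV (late). For each region, an exact permutation test asked whether calls were shared unevenly between early and late libraries, shuffling labels within a genotype. It was two-sided, with Benjamini-Hochberg adjustment over all 3388 regions. Libraries of the same line at different time points were taken as independent, so the p-values of this comparison can be too small. More regions were called early than late: of the 800, 556 had a higher share of early libraries, 234 of late ones and 10 equal shares, against 70.3% and 27.6% of all 3388 regions for the early and late direction. At equal peak numbers the excess was smaller, with 82 regions higher early and 52 late of 134 tested when peaks were ranked by total signal, and 88 and 80 of 169 by maximum signal. Without WT72 and CM40 at day 0 it was 337 and 267 of 608. At an adjusted p under 0.05, 77 regions were higher early and 8 late. Over all 3388 regions 9.77% were called early and 1.48% late, and promoter regions alone gave 9.81% and 1.62%, so the 9.63% and 1.00% of regions away from promoters stood near the background.

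**Figure D3:**
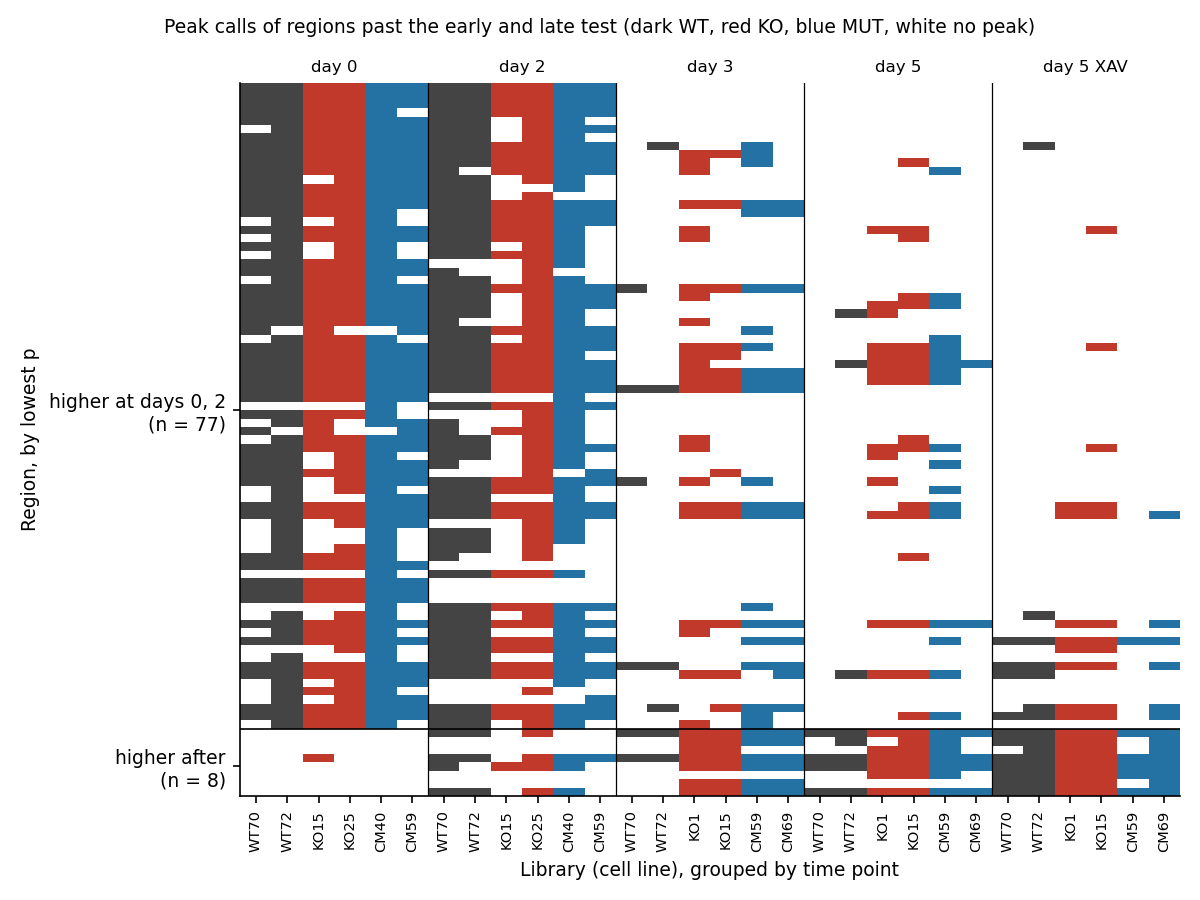
Peak calls of the 85 regions past the early and late test, one row per region in order of p and one column per library, grouped by time point (dark WT, red KO, blue MUT, white no peak). The 77 upper rows are filled mainly at days 0 and 2, 21 of them in all 12 libraries there, and are mostly white from day 3 on. The 8 lower rows are filled mostly from day 3 on.

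Many of these regions held no called peak after day 2, which does not measure the signal left there. Of all 800 regions away from promoters, 296 had peaks only at days 0 and 2, and 59 had one in all 12 early libraries. Many of the 296 rested on a pair of day 0 libraries rich in peaks. Of them, 74 were called only in WT72 and CM40 at day 0, 21 only in KO25 and CM40, and 21 only in WT72 and KO25. No matching count is given for promoter regions, so the 296 has no background here. The 77 were selected on the same calls, so their counts are descriptions with no test. Of the 77, 35 held no peak after day 2, 21 held one in all 12 early libraries, and 3 did both. These 3 were Gpm6a chr8:55345714-55379124 (33411 bp), Gpm6a chr8:55110831-55123710 (12880 bp) and Tmco5 chr2:116545124-116564323 (19200 bp). They were called in 4 of 4 WT, 4 of 4 KO and 4 of 4 MUT early libraries and in 0 of 18 late ones, with p = 1.08e-07 by the exact permutation test and an adjusted p of 7.32e-05. All lay outside genes and none had an island-like window. The nearest coding start, over 100 kb away in each case, belonged to Gpm6a, a neuronal membrane glycoprotein, or to Tmco5. Repeated sequence made up much of the Gpm6a pair: 87.4% and 85.4% of their 30-base words were repeated, against 18.2% in Tmco5. The widest region, with a width of 151212 bp and its nearer end 3934 bp upstream of the autophagy gene Atg7, was called in 12 of 12 early and 3 of 18 late libraries (exact test, adjusted p = 0.00138), and 91.9% of its words were repeated.

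A set of 3 wide regions covered the imprinted domain of Kcnq1 and Cdkn1c, where Cdkn1c codes for a cell cycle inhibitor expressed from the maternal allele. The one at chr7:143369895-143404782 in introns of Kcnq1 lay only 679 bp from a called promoter region. It was called in 11 of 12 early libraries, missed only in CM59 at day 0, and in 0 of 18 late ones (exact test, adjusted p = 0.000151). Its neighbour at chr7:143298118-143368726 was called in 11 early and 4 late libraries (exact test, adjusted p = 0.0145), and chr7:143127561-143202501 in 12 and 5 (exact test, adjusted p = 0.0049). All 5 late calls of the last fell at day 3, in WT70, both KO and both MUT lines. Few words of these 3 were repeated, at 1.16%, 1.99% and 2.95%.

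The gene lists held few of the regions higher early. By list, 2 of 24 neuroectoderm, 1 of 11 neuronal factor, 1 of 7 mesoderm, 0 of 2 endoderm, 2 of 14 signalling, 4 of 25 neuronal function, 0 of 6 pluripotency, 1 of 6 neural crest and 3 of 6 imprinted domain regions passed higher early, and 0 passed higher late in each list. The background was 9.77% higher early, and no test of these list counts is given. Sox9, a neural crest and glial regulator, had a region called in 5 early libraries and 0 late ones (exact test, adjusted p = 0.0484). Some others were chosen after their values were seen. A region 30456 bp from Sox1, the early neural plate factor, was called in 11 early and 5 late libraries (exact test, adjusted p = 0.00982). A region in Wnt3, a Wnt ligand of the primitive streak, was called in 12 and 8 (exact test, adjusted p = 0.0494), and one 57176 bp from Wnt11, a noncanonical Wnt ligand, in 7 and 0 (exact test, adjusted p = 0.0118). In Tet3, which codes for another TET dioxygenase, a region at the start of the lncRNA 5430434F05Rik was called in 9 early and 0 late libraries (exact test, adjusted p = 0.00138). Mir124a-3 was called in 12 and 7 (exact test, adjusted p = 0.0118).

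The 8 regions higher late were mostly narrow. Their median width was 1859 bp, against 9582 bp for the 77, and the 4 with the lowest p were 460 to 1010 bp wide with a maximum signal at percentile 99.0 to 99.7 of their libraries. The first, chr6:3200710-3201719 (nearest Samd9l), was called in all 18 late libraries and in WT70, WT72 and KO25 at day 2 (exact test, adjusted p = 0.00138). Of its 1010 bases, 779 lay in runs of at least 30 bases identical to the annotated 18S rRNA related sequence Rn18s-rs5. Of the 791 regions, 1 held such a match, and other rRNA sequences were not searched for, here or at the regions below. The second, 718 bp in an intron of Cdk8, was called in 0 of 12 early and 12 of 18 late libraries, 3 WT, 5 KO and 4 MUT (exact test, adjusted p = 0.011). The third, 460 bp in an intron of Aida, was called in 0 and 9, with 6 of 6 late KO, 1 WT and 2 MUT libraries (exact test, adjusted p = 0.0155), and the fourth, chr3:5860230-5861148, in 6 and 18 (exact test, adjusted p = 0.027). Repeated words made up 60.3%, 12%, 30.4% and 68.8% of these 4. All 20 of the regions under 1000 bp wide had a maximum signal above the middle of their libraries, with a median percentile of 99.6 against 24.0 for the 800. The other 4 included the Mir183 and Mir96 region (16833 bp), called in 4 early and 16 late libraries (exact test, adjusted p = 0.0394), and one of 12877 bp near Pparg, the adipocyte nuclear receptor, called in 0 and 9 (exact test, adjusted p = 0.0445).

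These counts moved with the libraries used. Kept within a cell line, which only WT70, WT72, KO15 and CM59 allow, 3 regions passed higher early and 0 higher late. With 704 peaks kept per library, 25 passed higher early with either ranking, and 10 (total signal) or 12 (maximum signal) higher late. Without WT70 or without WT72 the count was 37, and without KO25 48, while the late count fell to between 2 and 4 without WT70, WT72, KO1, KO15, KO25, CM59 or CM69. Without day 5 XAV the counts were 22 and 1. WT libraries held 1484 to 3450 peaks early and 969 to 1717 late, and the part of peak number in these calls was not tested beyond these counts.

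The second comparison asked whether KO cells differed from WT in where the mark lay away from promoters. The paper reports that KO cells turn to mesoderm and endoderm in this protocol, while WT cells become neural. It also reports that Wnt inhibition returns most KO cells to a forebrain fate. Differences between KO and WT at days 3 and 5 therefore hold genotype and cell type together, and their parts were not tested. Per library, the share of the 800 regions was 17.5% in WT70 and 62.6% in WT72 at day 0, against 26.0% in KO15 and 48.6% in KO25. At day 2 it was 39.3% and 30.9% in WT, against 16.6% and 34.3% in KO. From day 3 on every KO library held more than both WT libraries of its time point: 26.9% (KO1) and 21.1% (KO15) against 7.38% and 11.3% at day 3, 31.0% and 39.6% against 10.8% and 14.5% at day 5, and 22.3% and 38.3% against 16.4% and 21.3% at day 5 XAV. The mean difference, KO minus WT, was -2.75, -9.63, 14.7, 22.7 and 11.4 points in time order. No test is given for these shares, since the regions were chosen on the same calls. With peak numbers made equal within each time point, the differences were 0.313, -0.938, -0.25, 2.56 and 0.875 points. Each library kept its peaks of highest total signal, as many as the smallest library of its time point held. That was 1484, 1317, 969, 1191 and 704 peaks in time order. An equal number of peaks itself draws the shares together, so these values do not separate peak number from a change at these regions. The KO libraries held more peaks in all, 2122 and 2738 against 1270 and 1385 at day 5, and the part of that in the calls below was not tested further.

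**Figure D4:**
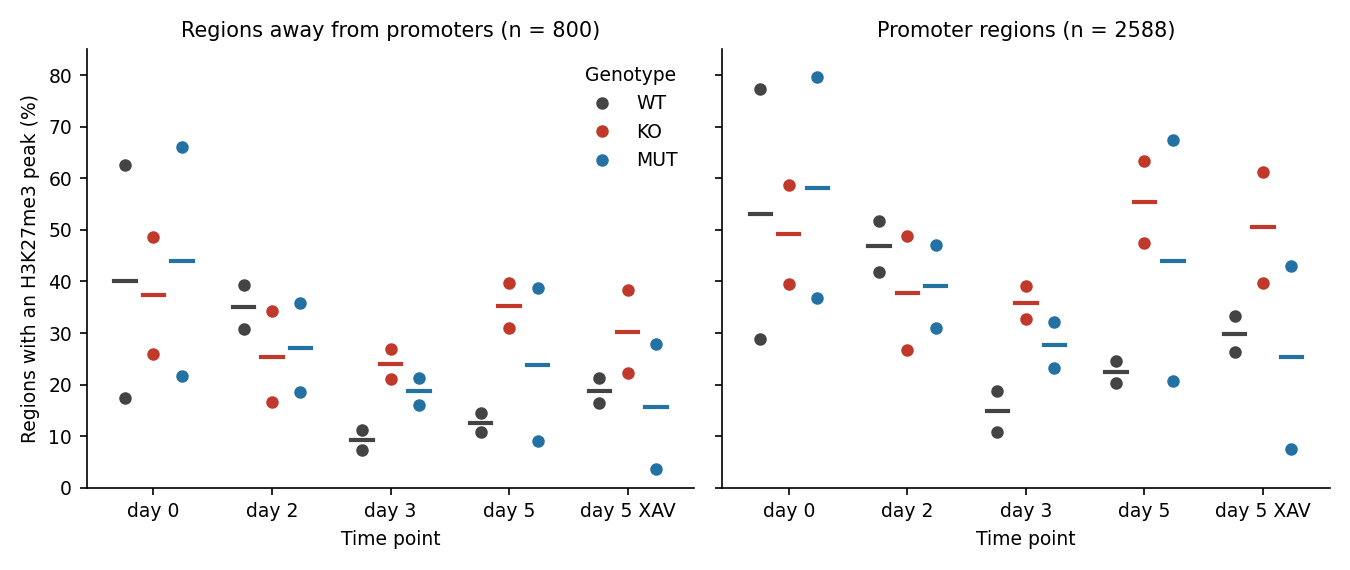
Share of regions with an H3K27me3 peak (y axis, percent) by time point (x axis) for WT (dark), KO (red) and MUT (blue), with a point per library and a bar at the mean of 2 lines, for the 800 regions away from promoters (left) and 2588 promoter regions (right). After day 2 the KO points lie above the WT points in both panels, and the day 0 points of a genotype are far apart.

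Region by region, no difference between KO and WT passed adjustment. The exact permutation test shuffled genotypes within a time point, and 641 of the 800 regions could be tested. It took libraries of the same line at different time points as independent, so its p-values can be too small. None reached an adjusted p under 0.05, as in 0% of all 2906 tested, and the lowest was 0.747. At an unadjusted p under 0.05, 25 regions were called more in KO and 1 more in WT, against 4.58% and 0.0688% of all regions tested. The smallest p that the exact test allows in this design, 0.000257, could not pass adjustment over 2906 regions for a single region on its own. In simulated data of this design, with many regions changed together, the test recovered 67% of those called at a rate of 0.9 in one genotype and 0.1 in the other. At 0.7 and 0.3 it recovered 0%, so weaker differences could not have been seen. Recovery with few changed regions was not tested, so the 67% is no measure of power in these data.

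The region with the lowest p was in the predicted gene Gm4881, at chr7:24927880-24935598, and lay only 1803 bp from a called promoter region. It was called in 9 of 10 WT libraries, all but WT70 at day 0, and in 0 of 10 KO and 0 of 10 MUT libraries. For both contrasts p was 0.000772 by the exact test, with adjusted p = 0.747 for KO and 1.00 for MUT. Both contrasts used the same WT libraries, all from WT70 and WT72, which the test took as independent. In the other direction, a region inside Baiap2l2 at chr15:79257672-79265689, near the lactate transporter gene Slc16a8, was called in WT72 at day 0 only and in 8 of 10 KO libraries, missed in KO15 at day 2 and KO1 at day 5 XAV (p = 0.00694, exact test). In MUT it was called in 3 libraries. A region at the start of the lncRNA 5430431A17Rik near Josd2, a deubiquitinase, at chr7:44473092-44485651, was called in 4 of 4 early and 0 of 6 late WT libraries, in 10 of 10 KO libraries and in 9 of 10 MUT libraries, missed in CM59 at day 5 XAV (p = 0.00926 for KO and 0.0278 for MUT, exact test). A region near H2-T3, an MHC class I-like gene, at chr17:36200802-36218198 had the same WT and KO calls, and 8 MUT calls. At equal peak numbers these differences were smaller, absent or reversed. KO minus WT at Josd2 went from 60 points to 10 by total and 0 by maximum signal, and at H2-T3 from 60 to 0 and -30. MUT minus WT by total signal went from 50 to -10 points at Josd2 and from 40 to -10 at H2-T3. At Gm4881 KO minus WT went from -90 to -30 and -40 points. H2-T3 belongs to a family of similar genes, so read placement there is uncertain. Gm21188 at chr13:120091612-120098761 was called in 3 WT, 9 KO and 1 MUT libraries (p = 0.0139, exact test), and 93.3% of its words were repeated. None of these p-values passed adjustment.

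More regions were found in both KO lines and neither WT line than the reverse after day 2. The counts were 1, 1, 78, 139 and 49 at days 0, 2, 3, 5 and 5 XAV, against 0.177%, 0.295%, 12.7%, 22.3% and 8.53% of all 3388 regions. The reverse counts were 0, 33, 3, 4 and 9, against 0.325%, 3.28%, 0.207%, 0.413% and 0.472%. As shares of the 800, the 78, 139 and 49 came to 9.75%, 17.4% and 6.13%, below those of all regions. At equal peak numbers per time point the counts were 9, 9, 5, 25 and 11, and the reverse ones 6, 14, 7, 11 and 3. Of the 139 at day 5, 97 (69.8%) were island-like, 25 held an lncRNA start, 90 had held a WT peak at day 0 or 2, and 95 held a peak in at least 1 MUT line at day 5, 7 of them in both. Of all 800, 602 had held such a WT peak, 311 a MUT peak at day 5 and 71 one in both MUT lines.

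**Figure D5:**
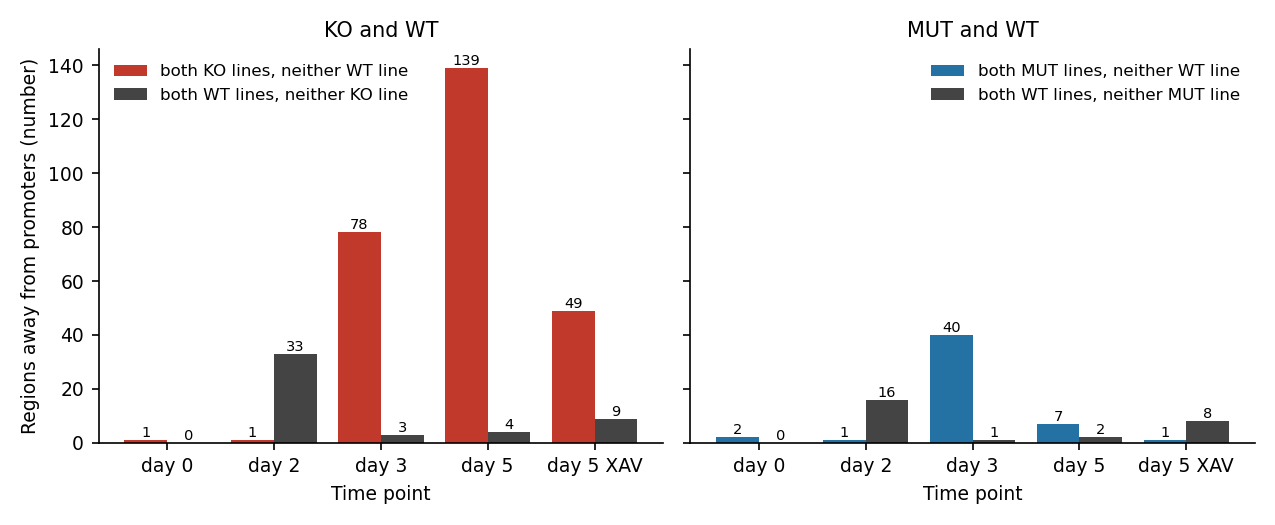
Number of regions away from promoters (y axis) called in both lines of a genotype and neither line of the other, by time point (x axis), with KO against WT in the left panel and MUT against WT in the right one. The KO bars reach 78, 139 and 49 from day 3 on, the MUT bars 40 at day 3 and 7 or fewer at other times.

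The third comparison set MUT cells, which keep a TET1 protein without catalytic activity, against WT. The share of the 800 regions was 66.1% in CM40 and 21.6% in CM59 at day 0, 35.8% and 18.6% at day 2, 21.4% in CM59 and 16% in CM69 at day 3, 38.8% and 9.0% at day 5, and 3.63% and 27.9% at day 5 XAV. The 2 MUT lines lay farther apart than the means of MUT and WT at days 0, 2, 5 and 5 XAV, and only at day 3 did both MUT libraries lie above both WT ones. MUT minus WT was 3.81, -7.88, 9.38, 11.3 and -3.06 points, and -0.688, -2.06, -0.438, -1.25 and -0.5 points at equal peak numbers, with the limit given for KO. As for KO, the smallest p that the exact test allows, 0.000257, could not pass adjustment for a single region on its own. Of 647 regions tested, none passed adjustment, as in 0% of all 2970 tested. At an unadjusted p under 0.05, 1 was called more in MUT and 1 more in WT, against 0.236% and 0.168% of all. These were the Josd2 and Gm4881 regions described above. Both MUT and neither WT line held a peak at 2, 1, 40, 7 and 1 regions in time order, against 0.118%, 0.266%, 5.64%, 2.3% and 0.118% of all regions. Both WT and neither MUT line did at 0, 16, 1, 2 and 8, against 0%, 2.24%, 0.059%, 0.207% and 1%. At equal peak numbers per time point the counts were 3, 3, 2, 7 and 6, and the reverse ones 7, 9, 7, 13 and 10, so the direction at day 3 turned. A region 5701 bp downstream of Otx2, a regulator of the anterior brain, lay only 226 bp from a called promoter region. It was called in 0 WT, 2 KO and 4 MUT libraries (p = 0.0833, exact test, adjusted p = 1.00). A region upstream of Lhx5, a forebrain LIM homeobox gene, was called in 9 WT, 8 KO and 5 MUT libraries (p = 0.0833, exact test, adjusted p = 1.00).

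The fourth comparison asked what Wnt inhibition with XAV did at day 5. In KO lines it comes together with the change of cell fate described above. Across the 6 lines sampled with and without XAV, 412 regions could be tested, and the smallest p the design allows, 0.00926, could pass adjustment over 2230 regions only if a large share of them reached it together, so no single region could pass on its own. None passed, as in 0% of all, and 5 were called more with XAV and 1 less at an unadjusted p under 0.05, against 0.493% and 0.135% of all tested. The first of the 5 by the naming rule lay on the unplaced scaffold JH584304.1. It was called in none of the 6 lines without XAV and in all but CM69 with it (p = 0.0278, exact test). Also among the 5 was a region downstream of Ephb3, an ephrin receptor gene, called without XAV in CM59 only and with XAV in all 6 lines. Another, upstream of Nkd1, a Wnt feedback inhibitor, was called in none of the 6 without XAV and in all but CM59 with it (p = 0.0278 each, exact test, adjusted p = 1.00). The Ephb3 and Nkd1 regions were both called in all 12 early libraries too. A region downstream of Spry4, an inhibitor of FGF signalling, was called in no library other than 5 of the 6 with XAV (p = 0.0278, exact test, adjusted p = 1.00). In the other direction, a region over part of Pax2, a regulator of midbrain, eye and kidney, at chr19:44829845-44842327 was called in 5 of 6 lines without XAV, all but WT70, and in none with it (p = 0.0278, exact test, adjusted p = 1.00). Both WT lines held a peak with XAV and neither without it at 31 regions, against 4.81% of all 3388, and the reverse at 3, against 0.443%. For KO these counts were 37 and 72, against 3.45% and 7.35%, and for MUT 2 and 5, against 0.236% and 1.06%.

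The deposited lists of regions that change in KO overlapped most of these regions. The authors chose those lists from the same KO and WT libraries by a signal test, so they are no independent evidence of direction. Of the 800, 538 (67.3%) touched at least 1 of the 4 lists, against 85.9% of promoter regions. The lists named loss-loss, loss-gain, gain-gain and gain in KO at day 5 XAV touched 170, 104, 244 and 224. Regions away from promoters made up 23.7% of the loss-loss list and 15.2%, 18.2% and 13.6% of the others. Gm4881 was in the loss-loss list and Josd2 in gain-gain.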

How the data were processed

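The study measured H3K27me3 by CUT&RUN in 30 libraries, with 30 IgG samples as controls (60 samples, 8 cell lines). Per the methods, the authors used Trim Galore for trimming and Bowtie, run locally against mm10, for alignment, removed duplicates with Picard 2.23.0 and called peaks against IgG with SEACR in its stringent setting, whose version is not given in the sources used here. Each deposited peak file holds positions, the total signal and the maximum signal of every peak in whole numbers not scaled to depth, so signal was used only as a rank within a library. The authors made the 4 deposited lists with DiffBind 3.0.15 in R 4.0.5, and these hold other values of which only the positions were used.

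Depth is unknown, so no counting interval is given. Groups and cell lines were taken from sample titles and genotype labels, and the free-text note of the KO25 samples, which names a WT line, was not followed. Peaks of all libraries were merged with at least 1 shared base. The regions, gene lists and tests were chosen with earlier results of these data known. Each region was tested with an exact permutation test of its calls, within time points for genotypes and within genotypes for time and XAV, two-sided, with Benjamini-Hochberg adjustment over all regions with at least 2 calls in the comparison. The test keeps the number of calls of a region fixed. Apart from the alternative with a block of cell lines, it takes libraries of the same line as independent. It was checked on simulated calls. Cell lines are the replicates, and the same line sampled at several times pairs the libraries of WT70, WT72, KO15 and CM59. At day 5 with and without XAV the correlation of the deviations of line pairs over the 800 regions was 0.0908 in WT, 0.0701 in KO and -0.221 in MUT.

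Named regions were the 4 with the lowest p in each direction of each comparison, up to 4 with a peak in 29 and in 30 libraries, the 4 widest, the 4 richest in CpG, the 4 farthest from a coding start and up to 3 per gene list. Sequence came from GRCm38.p6, and 9 regions on unplaced scaffolds have none here. Alternatives changed the promoter window, the overlap, the number of peaks, the libraries and the block of cell lines. Repeated 30-base words and the libraries with extreme peak numbers were examined after the data had been seen. Python 3.11.15, NumPy 2.4.6, SciPy 1.17.1 and Matplotlib 3.10.9 were used.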

Additional observations from a re-analysis of the deposited data

Results flagged for a closer look

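The share of the 800 regions with a peak changed in opposite directions with XAV in WT and KO lines at day 5. With XAV minus without, it was 5.63 points in WT70 and 6.75 points in WT72, and -8.75 points in KO1 and -1.38 points in KO15. The difference between the genotypes was not tested. By the paper's account KO cells also change fate with XAV, so XAV and cell type cannot be told apart in the KO lines. Promoter regions moved by 5.95, 8.77, -7.69 and -2.13 points in the same order, and the number of peaks went from 1270 to 1407, from 1385 to 1717, from 2122 to 1729 and from 2738 to 2461. The MUT lines moved apart, from 310 to 29 regions in CM59 and from 72 to 223 in CM69.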

How the results depend on the processing

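The number of regions away from promoters was 800, and became 519 with start sites of every biotype and 518 with regions rebuilt without the weakest 25% of peaks. With these regions and tests, no region passed adjustment in the KO, MUT and XAV comparisons under any alternative run. For early against late, the counts higher early and late were 77 and 8. Higher early counts were 48 without the weakest 25% of peaks and 25 with equal peak numbers by total or by maximum signal, where 10 and 12 passed higher late, and 20 of the 85 calls in both directions were kept with each ranking. Day 0 against day 5, with too few libraries for a single region to pass on its own, gave 0 and 0, and leaving out day 5 XAV 22 and 1. Without WT72 day 0 and CM40 day 0, an alternative added after the data were seen, 5 were higher late. Leaving out a cell line gave 37 to 72 higher early and 2 to 8 higher late. Paired within cell lines, as a replicate block, 3 passed higher early and 0 higher late, and 3 of the 85 calls were kept. For XAV, where no single region could pass on its own, none passed with the block either. The block was not run for KO or MUT.

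Differences in the share of regions moved with the number of peaks, and keeping an equal number in each library draws the shares together by itself. Without the weakest 25% of peaks, KO minus WT was 10.6 points at day 3 and 15.5 at day 5, and MUT minus WT 5.31 at day 3. At equal peak numbers within a time point, KO minus WT was -0.25, 2.56 and 0.875 points at days 3, 5 and 5 XAV, and MUT minus WT -0.438 at day 3. The counts of regions in both lines of a genotype and neither of the other, recomputed at equal peak numbers after the data were seen, were 9, 9, 5, 25 and 11 for KO without WT and 6, 14, 7, 11 and 3 for WT without KO at days 0, 2, 3, 5 and 5 XAV, and 32 and 23 at day 5 XAV without CM59. For MUT without WT they were 3, 2 and 6 at days 2, 3 and 5 XAV, and for WT without MUT 7, 9, 7 and 13 at days 0, 2, 3 and 5. The CpG ratio to promoter regions, 0.605 for the richest window, was 0.72 over whole regions. With equal peak numbers the H2-T3 region turned from 60 to -30 points (KO minus WT, by maximum signal) and the Josd2 and H2-T3 regions from 50 and 40 to -10 points each (MUT minus WT, by total signal). The cause was not tested. Depth per library is unknown, and 2 lines per group limit every comparison.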

Other observations

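Several regions named by the same rule have not yet been described. A region at chr7:144557725-144574101 over the start of the lncRNA Faddos, upstream of Ppfia1, which codes for a liprin of cell adhesion, was called in 8 WT, 4 KO and 5 MUT libraries, with the 4 KO calls in both lines at day 3 and at day 5 XAV (p = 0.0833, exact test, adjusted p = 0.894). A region at chr9:43448029-43458595, outside genes, was called in 9 WT, 5 KO and 8 MUT libraries, with no KO call at days 3 and 5 (p = 0.12, exact test, adjusted p = 0.946). A region upstream of Kctd15, a regulator of neural crest formation, was called in 8 WT, 8 KO and 4 MUT libraries (p = 0.153, exact test, adjusted p = 1.00), and one near the potassium channel gene Kcnk18 in 4 WT, 1 KO and 0 MUT (p = 0.125, exact test, adjusted p = 1.00).

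Among the 4 regions with the most CpG in a window, the number of libraries with a peak ranged widely. Beside the region inside Asb18 near Gbx2, with 29 libraries, regions with 63 CpG at the lncRNA Gm11837 and with 62 CpG in Snx20, a gene of leukocyte trafficking, were called in 4 and 6 libraries. A region in Nrg2, a neuregulin, with 69 CpG was called in 5. Regions with peaks only after day 2 (n = 144) had a median of 12 CpG in the window and 42.1% were island-like, against 18 CpG and 56.4% for the 296 with peaks only at days 0 and 2. These are descriptions of regions chosen on the same calls and were not tested.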
